A study of Mus musculus with 6 samples.

Results

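Interferon-stimulated genes are the genes that a cell switches on when interferon binds its receptors. They were taken from the liver expression table by gene symbol, from a list of 42 names. Of these, 40 were among the 15092 genes of the table, and all 40 passed the filter on low counts. Mx1 and Mx2 were not analysed here. These 40 were separated into 26 that are best known as targets of type I interferon, 11 GTPases best known as targets of interferon gamma, and 3 other genes that respond strongly to interferon gamma (Irf1, Cxcl9 and Cxcl10). Many of them respond to both kinds of interferon, so the classes are a convention.

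Type I interferons act through the receptor IFNAR and the kinases JAK1 and TYK2 to form a complex that includes STAT2 and IRF9 and binds an interferon-stimulated response element (ISRE) in target promoters. Interferon gamma acts through a separate receptor, and many of its target promoters hold a gamma-activated sequence (GAS). In liver, interferon responses restrict hepatotropic viruses and intracellular parasites, and both hepatocytes and the resident macrophages (Kupffer cells) can mount them.

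Messenger RNA from C57BL/6J mouse liver was compared between 3 libraries titled as knockout of Cry1 (CRY1 KO) and 3 titled as wild type (WT). Cry1 encodes a cryptochrome, a repressor in the circadian clock. Every title carries the prefix NC, which the labels do not explain and which all 6 libraries share. The labels name no treatment, and give no age, sex, hour of sampling or feeding state, and no details of the knockout allele. They also do not say that replicates came from separate animals, so p-values measure the spread between these libraries, which may be in part technical.

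The libraries held between 79708703 and 91316332 estimated counts. Cry1 itself stood at 6.95, 6.41 and 5.22 CPM (estimated counts scaled to a common library total) in CRY1 KO, against 4.80, 6.89 and 7.24 CPM in WT, so the value for the whole gene does not check the knockout labels (log2 difference -0.03, SE 0.19; edgeR adjusted p = 0.954; exact two-sided permutation p = 0.9, where 3 against 3 libraries allow no p under 0.1). The labels give hepatocyte as the cell type, and all 10 hepatocyte markers were detected, but so were all 13 Kupffer cell markers and all 8 sinusoidal endothelial markers. WT 1 stood apart from the rest. Summed Kupffer markers lay between 338 and 350 CPM in CRY1 KO, against 743 CPM in WT 1, 509 CPM in WT 2 and 364 CPM in WT 3. Summed red blood cell markers lay between 581 and 735 CPM in CRY1 KO, against 2972 CPM in WT 1, 1024 CPM in WT 2 and 654 CPM in WT 3. Most of that sum was haemoglobin, while the marker Alas2 had a log2 difference of 0.02. The groups overlapped in all 5 red blood cell markers. In bulk tissue, fewer cells of a type and less RNA per cell cannot be told apart.

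Of the 40 interferon-stimulated genes, 2 fell and 0 rose in CRY1 KO by edgeR's quasi-likelihood test with Benjamini-Hochberg adjustment over all 13816 tested genes. Of all tested genes, 0.644% fell and 1.06% rose. Both of the genes that fell, Ifi47 and Irgm2, were immunity-related GTPases. The log2 difference, CRY1 KO minus WT, was negative in 37 of the 40, where it was negative in 52.7% of all tested genes, and its median was -0.51, against -0.02 over all tested genes. At an unadjusted p under 0.05, 14 were lower and 0 higher, beside 9.84% of all tested genes lower and 10.9% higher. The 2 groups of libraries did not overlap in 13 of the 40. In 12 of those every CRY1 KO library lay below every WT library, a pattern found in 12.7% of all tested genes, and in 1 every CRY1 KO library lay above, as in 14.6% of all tested genes. The 12 include Isg15 and Ifit2, where WT 3 barely exceeded CRY1 KO 3 (2.836 against 2.829 CPM, and 2.742 against 2.735 CPM).

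Ifi47, also known as IRGD, belongs to the immunity-related GTPases, which coat and break the vacuoles of intracellular parasites. Its level was 14.3, 14.3 and 9.78 CPM in the CRY1 KO libraries, against 28.6, 31.3 and 21.1 CPM in the WT libraries. Every CRY1 KO library lay below every WT library. The gene averaged 12.8 ± 2.60 CPM in CRY1 KO and 27.0 ± 5.26 CPM in WT (SD, n = 3 each). On the log2 scale it differed by -1.08 (SE 0.19, 95% interval -1.53 to -0.63, edgeR adjusted p = 0.041).

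Irgm2 is a regulatory member of the same family, in mice one of the proteins that hold the effector GTPases inactive on the cell's own membranes. It stood at 27.3, 27.0 and 21.7 CPM in CRY1 KO, against 38.0, 36.8 and 39.7 CPM in WT. Its WT libraries lay close together, with WT 3 the highest. The means were 25.3 ± 3.14 CPM in CRY1 KO and 38.2 ± 1.47 CPM in WT (SD, n = 3 each), which is -0.59 on the log2 scale (SE 0.11, 95% interval -0.84 to -0.35, edgeR adjusted p = 0.0407). Both calls were lost when CRY1 KO 1, 2 or 3 or WT 2 was left out, with edgeR adjusted p between 0.101 and 0.159, while both held without WT 1 (0.0467 for Ifi47 and 0.0381 for Irgm2) and without WT 3 (0.0172 for Ifi47 and 0.0402 for Irgm2).

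Among the other immunity-related GTPases, the regulatory genes Igtp (log2 difference -0.79, edgeR adjusted p = 0.0862) and Irgm1 (-0.67, adjusted p = 0.133) also had groups that did not overlap. Igtp stood at 13.9, 12.5 and 11.7 CPM in CRY1 KO, against 25.6, 25.3 and 15 CPM in WT, with WT 3 much nearer to CRY1 KO than the other WT libraries. The effector genes Tgtp1 (-0.75, adjusted p = 0.156) and Tgtp2 (-0.64, adjusted p = 0.183) overlapped between groups, and as near-identical copies their values depend on how the authors' tools shared reads between them.

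Iigp1, an effector GTPase also known as IRGA6, had the 1 positive difference among the 11 GTPases. It stood at 290, 273 and 271 CPM in CRY1 KO, against 247, 264 and 215 CPM in WT. Every CRY1 KO library lay above every WT library, but the difference did not pass (log2 0.20, SE 0.10, 95% interval -0.03 to 0.43, edgeR adjusted p = 0.297). Its level per kilobase of exon, 47.7 CPM per kb in CRY1 KO and 41.5 CPM per kb in WT, was above that of the other 6 immunity-related GTPases, which lay between 1.06 and 6.86 CPM per kb in CRY1 KO and between 1.68 and 10.9 CPM per kb in WT. In mouse liver Iigp1 is known to be expressed without interferon from a promoter of its own, beside the interferon-induced promoter.

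The guanylate-binding proteins attack the vacuoles of pathogens and promote inflammasome signalling. All 4 had negative log2 differences, between -0.61 (Gbp3) and -0.40 (Gbp7), and 0 of 4 passed the edgeR test, with 1 at an unadjusted p under 0.05 and 0 called by DESeq2. Gbp6, highest in level of the 4 in CPM, stood at 7.68, 6.43 and 5.91 CPM in CRY1 KO, against 11.7, 10.4 and 7.33 CPM in WT (log2 -0.55, SE 0.19, edgeR adjusted p = 0.154), and its lowest WT library lay within the CRY1 KO range. Gbp2 had a difference of -0.44. Gbp7 varied widely within both groups, from 2.26 to 6.68 CPM in CRY1 KO and from 3.24 to 8.67 CPM in WT.

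**Figure D1:**
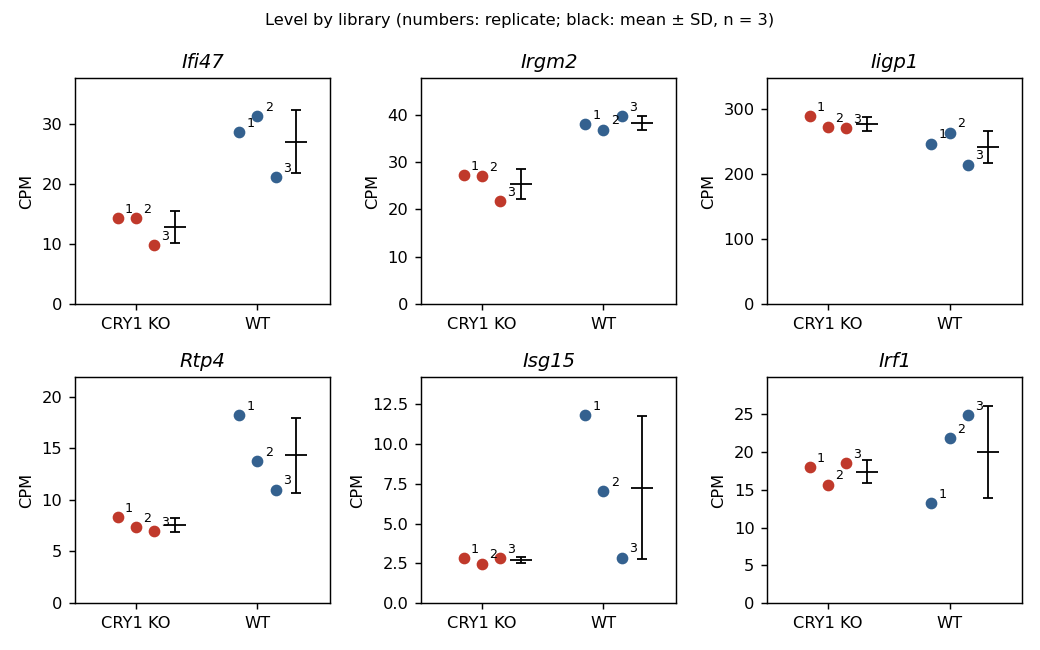
Level in CPM (vertical axes, from 0) of 6 genes in each library, with CRY1 KO in red and WT in blue, replicate numbers beside the points and the mean ± SD (n = 3) in black. Irgm2 separates the groups with all 3 WT libraries between 36.8 and 39.7 CPM, whereas in Isg15 WT 3 (2.84 CPM) lies beside the highest CRY1 KO library (2.83 CPM).

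The 3 other genes that respond to interferon gamma had log2 differences between -0.20 and 0.08, with a median of 0.05. Irf1, a transcription factor induced by interferon gamma, stood at 18, 15.7 and 18.5 CPM in CRY1 KO, against 13.2, 21.8 and 24.9 CPM in WT (log2 -0.20, SE 0.22, 95% interval -0.71 to 0.31, edgeR adjusted p = 0.644). The CRY1 KO values lay inside the WT range, and WT 1 was the lowest of the 6 libraries. Cxcl9 and Cxcl10 encode chemokines that draw activated T cells. Cxcl9 had a log2 difference of 0.05 (95% interval -0.33 to 0.44) and Cxcl10 of 0.08 (-0.76 to 0.93). In these 3 genes 0 passed the edgeR test, 0 had an unadjusted p under 0.05 and 0 were called by DESeq2.

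The promoters of the interferon-stimulated genes were searched for the binding sequences of the interferon factors. RefSeq promoters (GRCm38.p6, 250 bases before to 50 after each annotated start) were at hand for 31 of the 42 genes, with 36 promoters in all. The ISRE was searched as GAAANNGAAA and the GAS as TTCNNNGAA, each on both strands, where N is any base. The GAS motif reads the same on both strands, and a match to either motif may overlap a match to the other.

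An ISRE match lay in 58.3% of the 36 promoters, against 3.44% of all 32851 promoters in the table. A GAS match lay in 30.6% of them, against 8.30% of all promoters, and both motifs in 22.2%, against 0.454%. By gene, 8 of 9 interferon gamma GTPases had an ISRE match and 5 had a GAS match. Of 19 type I genes, 11 had an ISRE match and 5 a GAS match. These genes are known for such elements, so the matches describe the list and say nothing of the difference between the groups of libraries.

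In the promoters of Irgm2, Igtp, Tgtp1 and Tgtp2 the GAS match began exactly 11 bases before the ISRE match. This spacing was noticed in the sequences and then counted. It occurred in 5 of the 32851 promoters (0.0152%), of which 4 were those members and the fifth belonged to Gm12185, a gene that RefSeq places on the same chromosome. The stretches are shown 5′ to 3′ on the strand of the gene, with 41 bases each and both motifs in capitals, because they show a shared element in the called Irgm2 and in 3 relatives that were not called.
Irgm2: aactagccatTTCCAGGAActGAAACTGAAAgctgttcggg
Igtp: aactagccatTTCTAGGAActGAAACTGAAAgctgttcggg
Tgtp1: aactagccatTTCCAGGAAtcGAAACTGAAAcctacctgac
Tgtp2: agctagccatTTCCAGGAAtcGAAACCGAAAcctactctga
They lie at chr11:58214892-58214932, plus strand (Irgm2), chr11:58199501-58199541, plus strand (Igtp), chr11:48992304-48992344, minus strand (Tgtp1) and chr11:49064263-49064303, minus strand (Tgtp2), all in GRCm38.p6, in RefSeq promoter sequence.

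Other members with an ISRE match are shown for comparison, again with matches in capitals and 10 bases on either side. In Irgm1 and Isg15 several ISRE matches overlap in a run, and no GAS match lies beside them.
Irgm1: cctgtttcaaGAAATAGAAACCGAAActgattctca
Gbp2: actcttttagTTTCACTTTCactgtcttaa
Isg15: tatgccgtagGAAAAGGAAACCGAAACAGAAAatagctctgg
Oas1a: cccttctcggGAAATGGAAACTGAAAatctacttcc
Ifit1: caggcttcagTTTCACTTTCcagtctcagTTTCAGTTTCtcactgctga
Ddx58: cctgaggcagTTTCGATTTCctatggccag
These stretches lie at chr11:48871425-48871460, minus strand (Irgm1), chr3:142620594-142620623, plus strand (Gbp2), chr4:156200865-156200906, minus strand (Isg15), chr5:120907520-120907555, minus strand (Oas1a), chr19:34640775-34640823, plus strand (Ifit1) and chr4:40239804-40239833, minus strand (Ddx58).

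Ifi47, the gene with the larger called difference, had neither motif in its RefSeq promoter. The 250 bases before its start site, at chr11:49076337-49076586, plus strand, are shown in lower case because no letters matched.
Ifi47: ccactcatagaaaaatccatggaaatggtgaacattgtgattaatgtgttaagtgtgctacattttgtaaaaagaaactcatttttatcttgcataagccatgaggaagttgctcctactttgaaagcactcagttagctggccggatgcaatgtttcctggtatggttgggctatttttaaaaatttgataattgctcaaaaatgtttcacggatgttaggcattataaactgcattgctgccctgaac
No match says only that these letters are not in this window. Of the 2 GTPases that fell, Irgm2 held both motifs and Ifi47 neither.

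**Figure D2:**
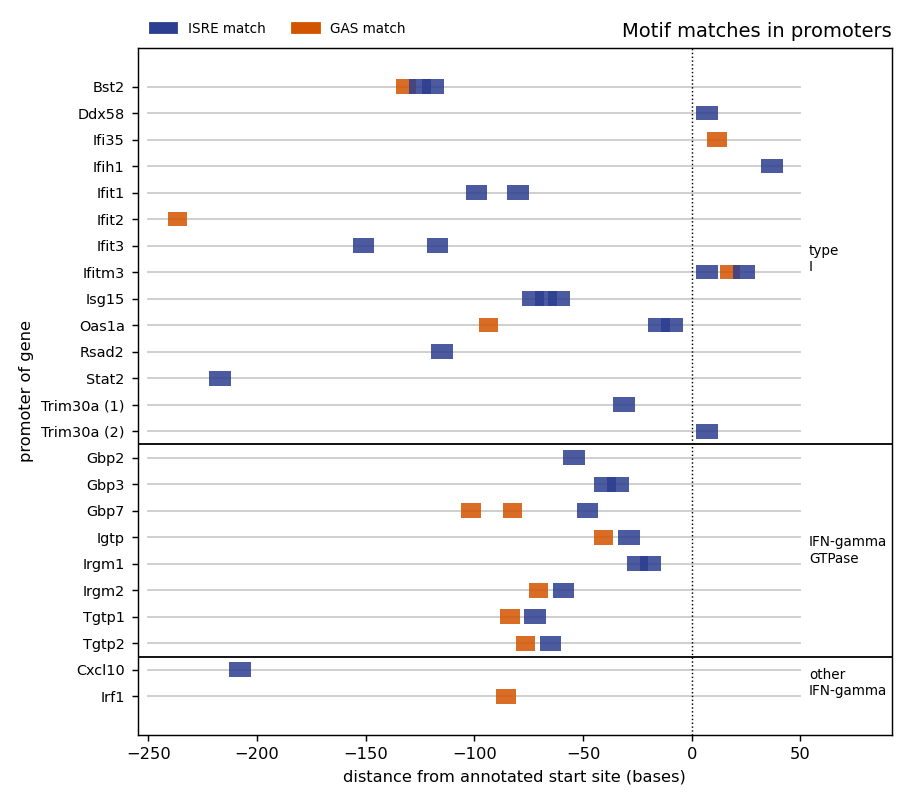
Positions of ISRE matches (blue) and GAS matches (orange) in promoters that held at least 1 match, by gene (rows) and distance from the annotated start site in bases (horizontal axis). In Irgm2, Igtp, Tgtp1 and Tgtp2 a GAS match is followed by an ISRE match 11 bases on.

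With all 6 libraries in the fit, the 26 type I genes all had negative log2 differences, with a median of -0.51, yet 0 of 26 passed the edgeR test. Without WT 1 some of them turned positive, Oas2 furthest (0.63). With all libraries, 7 of the 26 were lower at an unadjusted p under 0.05, beside 9.84% of all tested genes. DESeq2 called 6 lower, beside 3.97% of all tested genes. In 8 of the 26 every CRY1 KO library lay below every WT library, beside 12.7% of all tested genes. Of the 11 GTPases, 7 were lower at an unadjusted p under 0.05 and DESeq2 called 4 lower, beside the same shares of all tested genes. In 4 of the 11 every CRY1 KO library lay below every WT library, beside 12.7%, and in 1 above, beside 14.6%. The difference between the type I and GTPase classes, whose medians were -0.51 and -0.61, was not tested.

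Nearest to the threshold was Rtp4, an interferon-induced antiviral protein of the receptor transporter family. It stood at 8.34, 7.33 and 6.96 CPM in CRY1 KO, against 18.2, 13.7 and 11 CPM in WT. The groups did not overlap, and the log2 difference was -0.92 (SE 0.18, 95% interval -1.34 to -0.50, edgeR adjusted p = 0.051). Ifi27, a small interferon-induced membrane protein gene, stood at 36.9, 39.4 and 35.9 CPM in CRY1 KO, against 91.6, 61.6 and 44.5 CPM in WT (log2 -0.82, SE 0.24, edgeR adjusted p = 0.135). Of the other genes in that list, Ifi35 (-0.64) and Xaf1 (-0.59) had groups that did not overlap, and the ADP-ribosyltransferase gene Parp14 (-0.40), Ifi44 (-0.19) and Trim30a (-0.18) did not separate the groups.

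The sensors of foreign nucleic acid include Ddx58, which encodes RIG-I, and Ifih1, which encodes MDA5. Ddx58 stood at 20.3, 17.6 and 15.6 CPM in CRY1 KO, against 31.7, 28.3 and 23.8 CPM in WT, without overlap (log2 -0.65, SE 0.14, edgeR adjusted p = 0.0561). Ifih1 stood at 27.0, 28.4 and 25.2 CPM in CRY1 KO, against 36.4, 27.4 and 22.2 CPM in WT, where the WT libraries spanned the CRY1 KO values (log2 -0.09, 95% interval -0.48 to 0.29, edgeR adjusted p = 0.784). Dhx58, which encodes LGP2, had a difference of -0.66, and Zbp1, a sensor of Z-form nucleic acid, of -0.65. In both the lowest WT library lay among or under the CRY1 KO libraries.

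The antiviral effectors include proteins that bind viral RNA or block entry or budding, and the ubiquitin-like modifier ISG15 itself. Oasl1, a mouse inhibitor of IRF7 translation, stood at 7.77, 5.31 and 4.86 CPM in CRY1 KO, against 15.9, 14.3 and 9.18 CPM in WT (log2 -1.14, SE 0.25, edgeR adjusted p = 0.0678), and the groups did not overlap. Ifitm3, which blocks viral entry and was the highest of these genes in CPM, stood at 195, 178 and 188 CPM in CRY1 KO, against 270, 231 and 151 CPM in WT (log2 -0.22, 95% interval -0.67 to 0.23, edgeR adjusted p = 0.551). In Ifitm3 WT 3 was the lowest library and WT 1 the highest.

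Isg15 had the largest difference of all 40 genes and was named for that after its value was seen. It stood at 2.80, 2.46 and 2.83 CPM in CRY1 KO, against 11.8, 7.05 and 2.84 CPM in WT. WT 3 lay at the level of the CRY1 KO libraries, and the difference did not pass (log2 -1.42, SE 0.48, 95% interval -2.58 to -0.27, edgeR adjusted p = 0.171). Usp18, which removes ISG15 and dampens IFNAR signalling, was likewise high in WT 1 and WT 2 and had WT 3 as its lowest library, with 5.17, 4.49 and 5.24 CPM in CRY1 KO, against 14.0, 10.9 and 3.70 CPM in WT (log2 -0.94, edgeR adjusted p = 0.307). Of the others in that list, Ifit1 (-0.59), Ifit3 (-0.50), Ifit2 (-0.26), Rsad2 (viperin, -0.51), Bst2 (tetherin, -0.51), Oas1a (-0.47), Oas2 (-0.11) and Oasl2 (-0.01) did not pass.

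The transcription factors of the pathway had the smallest median difference of the 4 type I lists, at -0.22. Stat2 stood at 48.1, 52.1 and 50.1 CPM in CRY1 KO, against 60.0, 55.6 and 45.7 CPM in WT (log2 -0.10, 95% interval -0.35 to 0.15, edgeR adjusted p = 0.64). Irf9 stood at 26.4, 23.4 and 23.7 CPM in CRY1 KO, against 34.3, 26 and 25 CPM in WT (log2 -0.22, 95% interval -0.52 to 0.09, edgeR adjusted p = 0.386). Irf7, which amplifies interferon production, had a difference of -0.47 (95% interval -1.19 to 0.25). In each of the 3 genes the groups overlapped, with 0 called by edgeR or DESeq2 and 0 at an unadjusted p under 0.05.

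**Figure D3:**
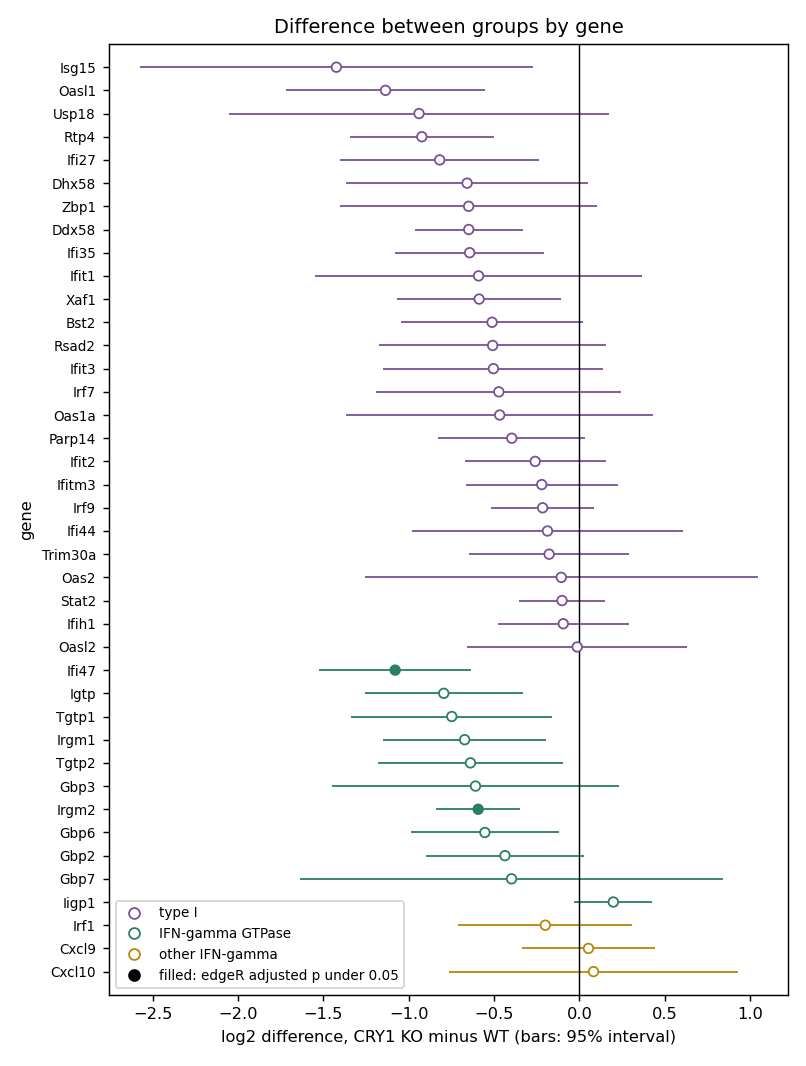
Log2 difference, CRY1 KO minus WT (horizontal axis), with its 95% interval for the 40 genes, sorted within type I genes, interferon gamma GTPases and other interferon gamma genes; filled points have an edgeR adjusted p under 0.05. Ifi47 and Irgm2 are the filled points, and all 26 type I genes lie left of 0.

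Most of the spread of the type I genes lay within WT. The SD of log2 CPM was larger in WT than in CRY1 KO in 26 of 26 type I genes, against 63.8% of all tested genes. Its median over these genes was 0.12 in CRY1 KO and 0.49 in WT, where all tested genes had 0.15 in CRY1 KO and 0.20 in WT. In all 26 genes WT 1 was the highest of the WT libraries, WT 2 the second and WT 3 the lowest, an arrangement found in 20.5% of all tested genes. WT 1 exceeded every CRY1 KO library in 26 of 26, WT 2 in 19 and WT 3 in 8. Over all tested genes WT 1 did so in 34.6%, WT 2 in 35.6% and WT 3 in 33.4%. In 12 of 26 WT 3 lay below every CRY1 KO library, beside 4301 of all 13816 tested genes.

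The median log2 deviation of the type I genes from their mean over the 6 libraries was -0.09, -0.23 and -0.29 in CRY1 KO 1, 2 and 3, against 0.71, 0.26 and -0.31 in WT 1, 2 and 3. WT 3 was therefore at the level of CRY1 KO. The 11 GTPases had -0.23, -0.24 and -0.49 in CRY1 KO, against 0.53, 0.43 and -0.13 in WT. In them WT 3 lay above all CRY1 KO libraries at the median. By gene, WT 3 exceeded every CRY1 KO library in 4 of the 11, beside 33.4% of all tested genes. The WT arrangement of the type I genes was followed by 3 of the 11, beside 20.5% of all tested genes.

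Kupffer cell markers had the same arrangement. Their median deviation was -0.39, -0.36 and -0.33 in CRY1 KO, against 1.05, 0.33 and -0.27 in WT, and 12 of 13 followed the arrangement of the type I genes in WT. Of these markers 0 passed the edgeR test. At an unadjusted p under 0.05, 8 were lower, beside 9.84% of all tested genes, and DESeq2 called 6 lower, beside 3.97%. In 8 of 13 every CRY1 KO library lay below every WT library, beside 12.7% of all tested genes. Slc40a1 was the 1 marker with a positive difference (log2 0.14). Their summed level was 338, 350 and 339 CPM in CRY1 KO, against 743, 509 and 364 CPM in WT. Summed sinusoidal endothelial markers ranged from 233 to 281 CPM in CRY1 KO and from 235 to 263 CPM in WT. The part of Kupffer cells in the result was not tested.

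Markers of other immune cells were low. Summed T and NK cell markers lay between 4.09 and 5.64 CPM in CRY1 KO and between 5.48 and 6.91 CPM in WT, with 12 of 13 markers in the table and 3 of these at 0 in at least 1 library. Monocyte markers lay between 3.54 and 4.25 CPM in CRY1 KO and between 4.49 and 11 CPM in WT, with 2 of 5 at 0 in at least 1 library. Neutrophil markers lay between 1.63 and 2.14 CPM in CRY1 KO and between 2.90 and 7.19 CPM in WT, with 0 of 4 tested called by edgeR. At an unadjusted p under 0.05, 2 of the 4 were lower, beside 9.84% of all tested genes. DESeq2 also called 2 lower, beside 3.97%. B and plasma cell markers lay between 3.33 and 4.53 CPM in CRY1 KO and between 8.50 and 13.7 CPM in WT. Of these Jchain, the joining chain of secreted antibodies, fell, with 1.51, 0.947 and 1.04 CPM in CRY1 KO, against 5.84, 4.12 and 9.23 CPM in WT (log2 -2.45, SE 0.33, edgeR adjusted p = 0.0194). Jchain was the largest part of the sum in every library. In the other 5 tested markers the groups overlapped, with log2 differences of -0.05 for Ms4a1 and -0.15 for Cd79a nearest to 0. Summed markers of plasmacytoid dendritic cells, a main source of type I interferon, lay between 0.332 and 1.01 CPM in CRY1 KO and between 0.583 and 0.814 CPM in WT. Their part in the result was not tested.

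**Figure D4:**
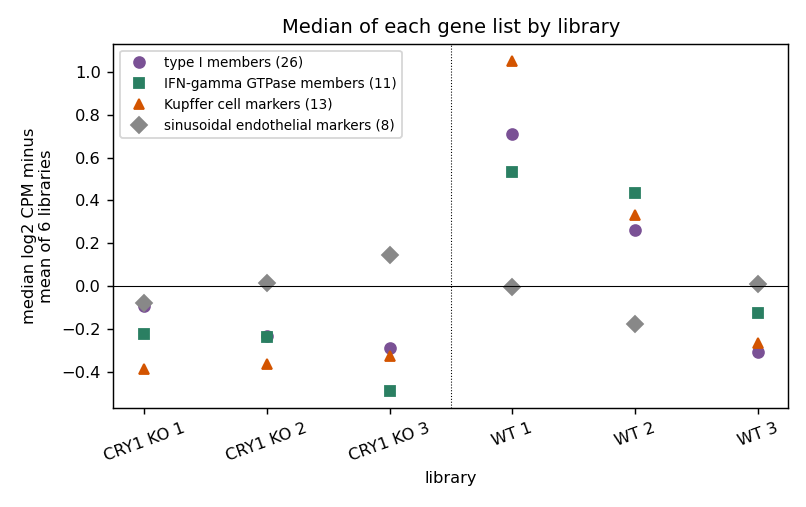
Median over each gene list of log2 CPM minus the mean of the 6 libraries (vertical axis) in each library (horizontal axis). Type I genes and Kupffer cell markers are highest in WT 1 (0.71 and 1.05) and near the CRY1 KO libraries in WT 3 (-0.31 and -0.27), while sinusoidal endothelial markers stay near 0.

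**Figure D5:**
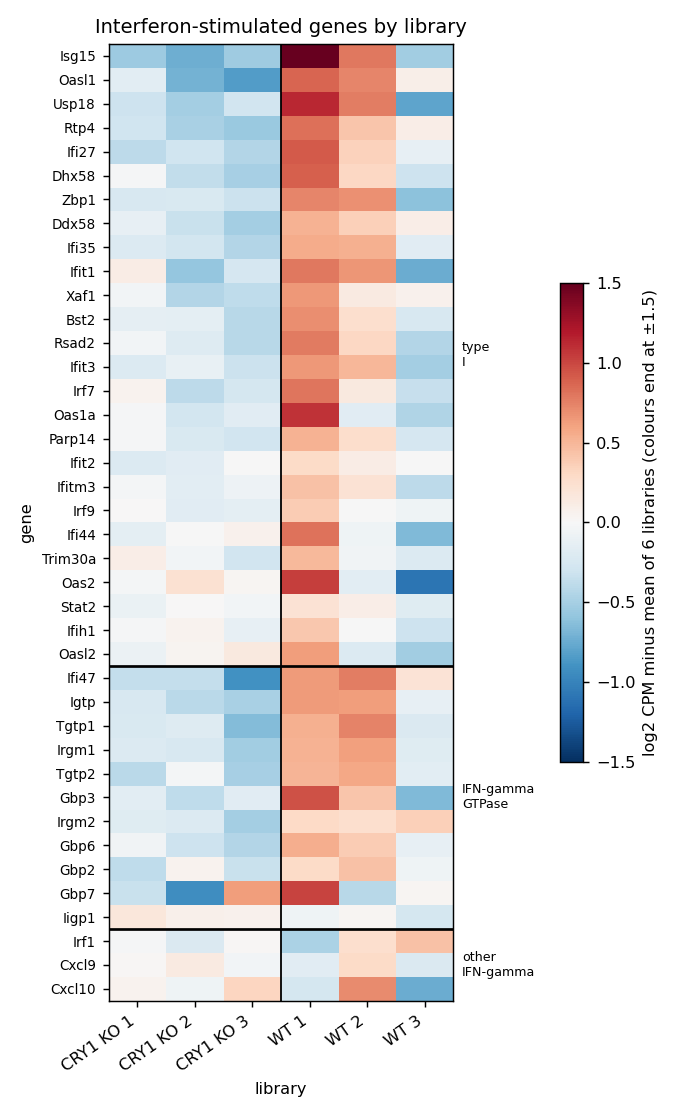
Log2 CPM minus the gene's mean over the 6 libraries (colour, red above and blue below the mean, ends at ±1.5) for each of the 40 genes (rows, by class) and each library (columns, CRY1 KO left of WT). WT 1 is the highest of the 6 libraries in all 26 type I genes and in 4 of the 11 GTPases.

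The calls and medians depended on which libraries entered the fit. Without WT 1 the median log2 difference was -0.23 for type I genes and -0.55 for GTPases, and 3 of the 40 genes were called lower (Ifi47, Irgm2 and Rtp4), beside 1.47% of all tested genes. Without WT 3 the medians were -0.73 and -0.84, and 21 of the 40 were called lower, 13 of them type I genes and 8 GTPases, beside 2.63% of all tested genes. Without WT 2, CRY1 KO 1, CRY1 KO 2 or CRY1 KO 3, 0 of the 40 were called by edgeR, in fits that called few genes of any kind. Without WT 2, 0.0356% of all tested genes were called lower, and 11 of the 40 were lower at an unadjusted p under 0.05, beside 6.47% of all tested genes. Without CRY1 KO 1 these values were 0.0855% called, and 12 of the 40 beside 7.73% at an unadjusted p. Without CRY1 KO 2 they were 0.0285% called, and 12 of the 40 beside 6.44%. Without CRY1 KO 3 they were 0.0714% called, and 8 of the 40 beside 5.98%. With all libraries DESeq2 called 10 of the 40 lower, beside 3.97% of all tested genes: Ifi47, Irgm2, Igtp and Irgm1 among the GTPases and Rtp4, Oasl1, Ddx58, Ifi27, Ifi35 and Isg15 among the type I genes.

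The rest of the pathway was examined in 100 further genes, of which 89 were tested. Past the threshold 4 were lower and 0 higher, beside 0.644% and 1.06% of all tested genes. For the list counts that follow, 9.84% of all tested genes were lower and 10.9% higher at an unadjusted p under 0.05. DESeq2 called 3.97% of them lower. Of interferon genes themselves, Ifng was at 3, 5 and 2 estimated counts in CRY1 KO, against 0, 0 and 2 in WT, too low to test, and the other 7 listed were not analysed here. Of 6 interferon receptor chains 0 passed the edgeR test, with 1 (Il10rb, -0.44) at an unadjusted p under 0.05 and 0 called by DESeq2. The log2 difference was -0.02 for Ifnar1 (95% interval -0.35 to 0.30), -0.12 for Ifnar2 (-0.31 to 0.07), -0.17 for Ifngr1 (-0.40 to 0.05), 0.10 for Ifngr2 (-0.12 to 0.31) and -0.09 for Ifnlr1. The 3 receptor kinases had small positive differences, the largest 0.15 for Jak1, with 0 called by either tool and 0 at an unadjusted p under 0.05.

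Of the 6 genes in a list of further STAT and IRF factors, 0 passed the edgeR test, with 3 lower and 1 higher at an unadjusted p under 0.05 and 2 lower and 1 higher by DESeq2. Irf5, which drives cytokine genes in macrophages, had a difference of -0.76 (adjusted p = 0.092). Irf2, a competitor of IRF1 at its binding sites, was named after its values were seen. It stood at 70.1, 68.4 and 78.1 CPM in CRY1 KO, against 35.4, 37.7 and 58.9 CPM in WT, and was higher without overlap but short of the threshold (log2 0.71, edgeR adjusted p = 0.0995). Of 6 inhibitors of the pathway 0 passed the edgeR test, with 3 lower at an unadjusted p under 0.05 and 2 lower by DESeq2, and Socs3, a brake on JAK kinases, came nearest (-1.02, adjusted p = 0.0795).

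The genes that fell outside the 40 were Ikbke, Helz2, Uba7 and Nlrc5. Ikbke encodes a kinase that activates IRF3 downstream of nucleic acid sensors, and it stood at 14.7, 12.4 and 16.7 CPM in CRY1 KO, against 30.1, 33.3 and 26.4 CPM in WT (log2 -1.04, SE 0.14, edgeR adjusted p = 0.0175). It was the 1 called gene of 12 in its list of sensing genes and adaptors, with 3 lower and 2 higher at an unadjusted p under 0.05 and 2 lower by DESeq2. Helz2, an interferon-inducible helicase and coactivator of nuclear receptors, stood at 69.5, 61.4 and 58.4 CPM in CRY1 KO, against 99.2, 110 and 114 CPM in WT (log2 -0.77, SE 0.10, adjusted p = 0.0174). Uba7, the activating enzyme for ISG15, stood at 7.72, 7.35 and 7.98 CPM in CRY1 KO, against 14.4, 15.6 and 11.5 CPM in WT (log2 -0.85, SE 0.14, adjusted p = 0.0311).

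In these 3 genes, as in Irgm2 and Ifi47, all WT libraries lay above all CRY1 KO libraries, and in Helz2 and Irgm2 WT 3 was the highest. Helz2 and Uba7 were 2 of 36 tested genes in a list of other type I effectors, where 32 had negative differences and 34 did not pass. At an unadjusted p under 0.05, 11 of the 36 were lower and 1 higher, and DESeq2 called 7 lower and 1 higher. Of 10 other interferon-inducible GTPases, 9 had negative differences and 0 passed the edgeR test, with 2 lower at an unadjusted p under 0.05 and 1 by DESeq2, F830016B08Rik being nearest (-0.89, adjusted p = 0.0817). All 10 genes of class I antigen presentation had negative differences, with 7 lower at an unadjusted p under 0.05 and 4 by DESeq2, beside 9.84% and 3.97% of all tested genes. By the edgeR test Nlrc5 alone of the 10 fell (-0.74, edgeR adjusted p = 0.0407). It is the transactivator of class I genes, and stood at 12.9, 11.1 and 10.2 CPM in CRY1 KO, against 21.2, 16.3 and 19.5 CPM in WT.

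These 4 calls held without WT 1 and without WT 3 in the edgeR fit. That of Nlrc5 was lost without scaling. Leaving out WT 2 or CRY1 KO 2 ended each of them, leaving out CRY1 KO 1 ended those of Ikbke, Uba7 and Nlrc5, and leaving out CRY1 KO 3 ended those of Helz2, Uba7 and Nlrc5. The highest edgeR adjusted p over all alternatives was 0.0863 for Ikbke, 0.0973 for Helz2, 0.141 for Uba7 and 0.172 for Nlrc5.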

How the data were processed

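Liver mRNA was measured in 3 CRY1 KO and 3 WT libraries, grouped by sample title. Whole numbers were deposited, and they were taken here as estimated counts, inferred from the file: a value of 3 was commoner than 1, 2 or 4 throughout (WT 1 had 125 such genes, with 22 at 1, 56 at 2 and 70 at 4), so a unit may not be a single fragment. GRCm39, limma 3.42.2, StringTie 2.1.7, HISAT2 2.2.1 and Trim Galore 0.6.7 are named, per the submitters' processing notes, with no role or order. Whether counting was stranded, and on which gene models, was not given in the sources used here. No gene summed to under 11 over the 6 libraries.

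Low genes were removed by filterByExpr of edgeR 4.0.16 (at least 10 counts, total at least 15), leaving 13816 of 15092, which were scaled by TMM and compared with its quasi-likelihood test (robust, Benjamini-Hochberg, threshold 0.05), after a test on simulated data. CPM uses TMM-scaled totals, log2 deviations carry no pseudocount and leave out values of 0, and levels per kb use union exons of GENCODE M21 (GRCm38). Alternatives were other scalings, DESeq2 1.42.0, no filter, a replicate block and leaving out each library. Members, classes and lists were chosen with earlier results of these data known. Per-library values are given for called genes and, in each list, for the gene with the smallest p and that with the highest level. A result on 1 pathway gene is not reported here. Genes named otherwise were chosen after their values were seen. Ifit3, Oas1a, Tgtp1, Tgtp2 and some guanylate-binding protein genes have near-identical copies.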

Additional observations from a re-analysis of the deposited data

How the results depend on the processing

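The number of all genes called was 235 in the edgeR fit, 113 without scaling, 94 with the replicate block, 1284 by DESeq2, and from 17 to 844 when a library was left out. Of the 40 interferon-stimulated genes 2 were called lower, against 10 by DESeq2 and from 0 to 21 when a library was left out, and 0 were called higher under any of the 11 alternatives. Fits without a library have fewer samples. The median log2 difference of type I genes ran from -0.73 to -0.23 and that of the GTPases from -0.84 to -0.55 over the alternatives. The log2 difference was negative in 37 of the 40 with all libraries in the edgeR fit, and in 32 without WT 1. That of Ifih1 ran from -0.25 (without WT 3) to 0.11 (without WT 1). Without WT 1, Oas2 (0.63), Oasl2 (0.39), Ifi44 (0.31), Oas1a (0.16), Trim30a (0.06) and the GTPase Gbp7 (0.11) also turned positive. The cause was not tested. Ifi47 stayed called in 7 and Irgm2 in 5 of the 11 alternatives, Irgm2 missing the threshold without scaling (adjusted p = 0.0563). The replicate numbers did not pair the libraries: same-numbered deviations from the group means had correlations of -0.07, -0.01 and 0.07. With the replicate block 3 of the 40 were called lower (Ifi47, Ddx58 and Oasl1), and the adjusted p was 0.0847 for Irgm2, 0.0527 for Helz2, 0.0636 for Ikbke, 0.0648 for Nlrc5 and 0.0791 for Uba7, which ended all 5 of these calls. Depth limited Ifng, which was too low to test.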
